A study of Homo sapiens with 8 samples.

Results

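The 10 genes described here are negative regulators and transcriptional targets of the MAP kinase pathway: the dual-specificity phosphatases DUSP4, DUSP5 and DUSP6, the Sprouty proteins SPRY1, SPRY2 and SPRY4, the Sprouty-related proteins SPRED1 and SPRED2, and the ETS factors ETV4 and ETV5. They were chosen by name, as a readout of ERK signalling, with earlier results of these data known. The genes were found through the transcript accession printed for each probe. They are represented by 14 probes of the 41000 probes on the array and are 10 of the 17240 gene symbols that could be matched. DUSP4, DUSP5, DUSP6, SPRY1, SPRY2 and SPRY4 had 1 probe each, and SPRED1, SPRED2, ETV4 and ETV5 had 2 probes each. For the last 4 genes, the brighter probe was used unless both are given.

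The cells were CAPAN-2, an established human pancreatic adenocarcinoma line of epithelial origin. Clones in which the receptor tyrosine kinase ErbB2 was knocked down by a stably transfected shRNA plasmid with puromycin selection (ErbB2-KD) were compared with a pool of NT control clones. Cells in which the membrane mucin MUC4, a partner of ErbB2, was knocked down by a retroviral shRNA vector with G418 selection (MUC4-KD) were compared with a pool of Mock control clones. Each pool held 4 control clones carrying the empty vector, each experiment had 4 two-colour Agilent arrays, and the study asked which pathways the receptor and the mucin each act on. The ErbB2-KD arrays carried 4 named clones, whereas the labels do not name the MUC4-KD clones, so the spread between those arrays may be partly technical. The study's methods describe separate clones for both knockdowns. By the dye labels, MUC4-KD arrays 1 with 3 and 2 with 4 could be dye swaps of the same clones. The dye labels allow 1 with 4 and 2 with 3 equally. A fit with the first pairing averaged is given below. Each control was 1 pool hybridised on all 4 arrays of its experiment, so the p-values leave out the spread among control clones. The 2 experiments had different pools and share no control RNA.

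Growth factor receptors such as ErbB2 signal through RAS, RAF and MEK to the kinase ERK, and active ERK turns on genes that in turn restrain the pathway. DUSP proteins remove the phosphates from MAP kinases, Sprouty and SPRED proteins act upstream on the receptor adaptors, RAS and RAF, and ETV4 and ETV5 are transcription factors that carry the signal to further genes. Because their transcripts follow ERK activity in many epithelial cells, the mRNA of these genes is widely read as an output of the pathway. Kinase activity itself was not measured on these arrays.

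The targeted genes were read first. The brighter ERBB2 probe (A_23_P89249) gave log2 ratios of ErbB2-KD over NT of -0.58, -0.32, -0.33 and -0.38 on arrays 1 to 4. It was below 0 on 4 of 4 arrays (mean -0.40 ± 0.12, SD, n = 4) without passing the test (limma adjusted p = 0.145), and the other ERBB2 probe stood at 0.04 ± 0.02 (SD, n = 4). For MUC4, probe A_24_P208825 gave 1.71, 2.34, 2.21 and 1.08 on the MUC4-KD arrays, as knockdown over Mock by the labels, a mean of 1.84 ± 0.57 (SD, n = 4; adjusted p = 0.00804 in limma). MUC4 was thus higher in the RNA labelled knockdown, which goes against that label. The brightest of the 4 MUC4 probes gave 0.27 ± 0.23 (SD, n = 4; adjusted p = 0.167 in limma). The deposited ratios follow the dye labels, and a supplementary list of the study runs the other way, so the direction of the MUC4-KD experiment is not settled. Its ratios are given below as labelled, and the differences from ErbB2-KD are also given with their sign turned. Other measures of MUC4 in these clones were not analysed here. The 7 epithelial markers on the array were well above background in both RNAs on all 8 arrays, against 1 of 6 fibroblast markers (VIM), 2 of 5 leukocyte markers (CD68 and CD14) and 0 of 4 endothelial markers.

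Promoter sequences from RefSeq (GRCh38.p14) are shown for DUSP6, SPRY1, SPRY2, SPRY4 and SPRED2, whose ratios are described below, at 1 start each. That start is the most upstream one given, except in SPRY1, where it is the one with the longer ETS motif. The table used held 10 promoters of 6 members, and DUSP4, DUSP5, ETV4 and ETV5 had none. Each is the 250 bases before a transcript start, read in the direction of transcription. Capitals mark GGAA or its complement TTCC, the core that ETS factors such as ETV4 recognise, and, in SPRY1, the longer ETS motif CCGGAAG.
DUSP6, chr12:89352502-89352751, minus strand: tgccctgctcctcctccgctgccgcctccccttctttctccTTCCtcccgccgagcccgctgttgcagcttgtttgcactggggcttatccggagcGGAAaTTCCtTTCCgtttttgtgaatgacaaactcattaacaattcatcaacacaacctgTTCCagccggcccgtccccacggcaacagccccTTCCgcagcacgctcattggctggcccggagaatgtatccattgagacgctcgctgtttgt
SPRY2, first of 3 starts, chr13:80341127-80341376, minus strand: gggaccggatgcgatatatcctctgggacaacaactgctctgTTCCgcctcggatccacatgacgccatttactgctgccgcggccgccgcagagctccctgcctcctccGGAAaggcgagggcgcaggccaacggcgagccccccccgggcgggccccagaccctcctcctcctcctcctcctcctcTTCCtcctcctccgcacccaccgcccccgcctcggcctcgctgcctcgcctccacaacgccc
SPRY4, chr5:142324248-142324497, minus strand: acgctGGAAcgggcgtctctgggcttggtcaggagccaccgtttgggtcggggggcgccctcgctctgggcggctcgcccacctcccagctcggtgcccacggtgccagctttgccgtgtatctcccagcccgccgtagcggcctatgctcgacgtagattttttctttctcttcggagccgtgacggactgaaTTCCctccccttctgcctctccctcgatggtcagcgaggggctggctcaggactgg
SPRY1, the second of 2 starts, chr4:123398136-123398385, plus strand: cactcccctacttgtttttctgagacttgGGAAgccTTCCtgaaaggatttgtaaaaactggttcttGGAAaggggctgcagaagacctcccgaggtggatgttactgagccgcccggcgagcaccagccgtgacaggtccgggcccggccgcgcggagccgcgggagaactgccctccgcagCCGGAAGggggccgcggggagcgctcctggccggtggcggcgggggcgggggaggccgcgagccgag
SPRED2, first of 2 starts, chr2:65432600-65432849, minus strand: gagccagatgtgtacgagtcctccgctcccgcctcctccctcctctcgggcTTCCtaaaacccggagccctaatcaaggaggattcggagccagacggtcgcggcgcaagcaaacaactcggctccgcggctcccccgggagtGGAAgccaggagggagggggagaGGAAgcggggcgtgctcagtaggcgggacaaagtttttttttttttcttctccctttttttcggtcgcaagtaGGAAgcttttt
In windows of 300 bases, 250 before to 50 after the start and on both strands, the 10 member windows held 3 to 6 GGAA cores each, against a median of 3 over all 35116 promoters. Those printed held 6 in DUSP6, 3 in SPRY2, 4 in SPRY4, 4 in SPRY1 and 6 in SPRED2, some of them after the start. The motif CCGGAAG, which contains GGAA, was in 1 of the 10 member windows, that of SPRY1, and in 10.3% of all promoters. The AP-1 motif TGANTCA was in 1 of the 10 windows, at the second SPRED2 start, and in 7.71% of all promoters. These are matches of letters, and no binding was measured.

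In the ErbB2-KD experiment, the 3 phosphatases and SPRY2 had higher mean levels in the knockdown RNA, while SPRY4 and the SPRED genes had means near 0. ETV4 had a mean of 0.23 with arrays on both sides of 0. None of the 8 members that could be tested passed an adjusted p of 0.05 (0 of 8 by limma, where 1.43% of 23869 tested probes passed). At an unadjusted p under 0.05, limma gave 4 members (DUSP4, DUSP5, DUSP6 and SPRY2), all higher, where 7.47% of tested probes were higher at that level. These 4 members were also higher on 4 of 4 arrays, as were 12.1% of tested probes. The methods' t-test gave 2 at an unadjusted p under 0.05, DUSP4 and SPRY2, against 3176 of the 23869 tested probes in either direction. The median log2 ratio of the 8 members was 0.31, against -0.01 over all tested probes. The epithelial markers had a median of 0.53 in ErbB2-KD, with 0 of 7 passing in limma and 2 higher at an unadjusted p under 0.05 (EPCAM at 0.67 and KRT8 at 0.65). The tested markers of other cell types also had means above 0, at 0.94 for VIM, 0.75 for CD68, 0.55 for CD14 and 0.66 for VWF, and 0 of these 4 passed in limma, with all 4 past an unadjusted p of 0.05. The part of these markers in the members' ratios was not tested.

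DUSP4, a nuclear phosphatase that acts on ERK and other MAP kinases, had log2 ratios of 0.48, 0.67, 1.50 and 0.67 on arrays 1 to 4 of ErbB2-KD. The third array stood above the others, and the mean was 0.83 ± 0.45 (SD, n = 4; adjusted p = 0.106 in limma). Without array 3 the mean was 0.60.
DUSP5, a nuclear phosphatase specific for ERK, gave 0.53, 1.45, 0.36 and 0.71. Array 2 was the highest, and the mean was 0.76 ± 0.48 (SD, n = 4; adjusted p = 0.131 in limma).
DUSP6, the cytoplasmic ERK phosphatase, often read as a marker of ERK output, gave 0.24, 0.97, 0.14 and 0.47, again with array 2 highest. Its mean was 0.45 ± 0.37 (SD, n = 4; adjusted p = 0.229 in limma), and 0.28 without array 2.
All 3 phosphatases were thus above 0 in every clone, with a spread between clones nearly as large as the mean for DUSP6. In 1 fit over all 8 arrays with a shared spread, DUSP4 was the 1 member of 8 to pass in ErbB2-KD (limma adjusted p = 0.0376), where 4.83% of tested probes passed.

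SPRY2, an inhibitor that binds receptor adaptors, gave 0.60, 0.31, 0.40 and 0.26 in ErbB2-KD. It had the smallest spread of the 10 members, and its mean was 0.39 ± 0.15 (SD, n = 4; adjusted p = 0.159 in limma). SPRY1 gave 0.52, 0.09, 0.63 and 0.31, a mean of 0.39 ± 0.24 (SD, n = 4), but it was well above background on 3 arrays of each RNA and was left out of the test. SPRY4 gave -0.55, 0.13, 0.10 and 0.13, with array 1 alone below 0. Its mean of -0.05 ± 0.34 (SD, n = 4; adjusted p = 0.913 in limma) became 0.12 without array 1. SPRY1 and SPRY2 were thus above 0 on every ErbB2-KD array and SPRY4 on 3 of 4.

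SPRED1, which brings the RAS inhibitor neurofibromin to the membrane, gave 0.37, 0.20, -0.31 and -0.28 in ErbB2-KD (mean -0.01 ± 0.34, SD, n = 4; adjusted p = 0.991 in limma). SPRED2 gave -0.12, 0.70, -0.65 and -0.04 (mean -0.03 ± 0.55, SD, n = 4; adjusted p = 0.966 in limma). Both genes had arrays on either side of 0. ETV5, an ETS factor of the PEA3 group, gave -0.25, -0.51, -0.79 and -0.17, a mean of -0.43 ± 0.28 (SD, n = 4). It was below 0 on 4 of 4 arrays with either probe, but was well above background on only 2 arrays in the knockdown RNA and 3 in the control RNA and was not tested. With the scanner software's own log ratios the ETV5 mean was -2.04, so the size of its ratio depended on the processing.

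ETV4, the other PEA3 factor, gave -0.22, -0.26, 0.83 and 0.55 in ErbB2-KD, and its mean was 0.23 ± 0.55 (SD, n = 4; adjusted p = 0.652 in limma). Leaving out 1 array moved this mean to between 0.024 (without array 3) and 0.39 (without array 2). Arrays 1 and 2, where the knockdown RNA was labelled with Cy5, were below 0, and arrays 3 and 4, where it was labelled with Cy3, were above 0. In the MUC4-KD experiment the arrays with the knockdown RNA in Cy3 also had the higher values, at 0.87 and 0.75 against 0.32 and -0.01. Over all 8 arrays the ETV4 ratio with the knockdown in Cy5 minus that with the knockdown in Cy3 was -0.79 on the log2 scale (limma unadjusted p = 0.000629, adjusted p = 0.0958). No probe passed for the dye term after adjustment (0.00% of 25835), and 16.9% passed at an unadjusted p under 0.05. The second ETV4 probe moved with the dye in the same way, with a dye difference of -0.91. Each experiment held 2 arrays of each dye orientation, and with a dye term in the fit the ETV4 means remained 0.23 in ErbB2-KD and 0.48 in MUC4-KD.

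**Figure D1:**
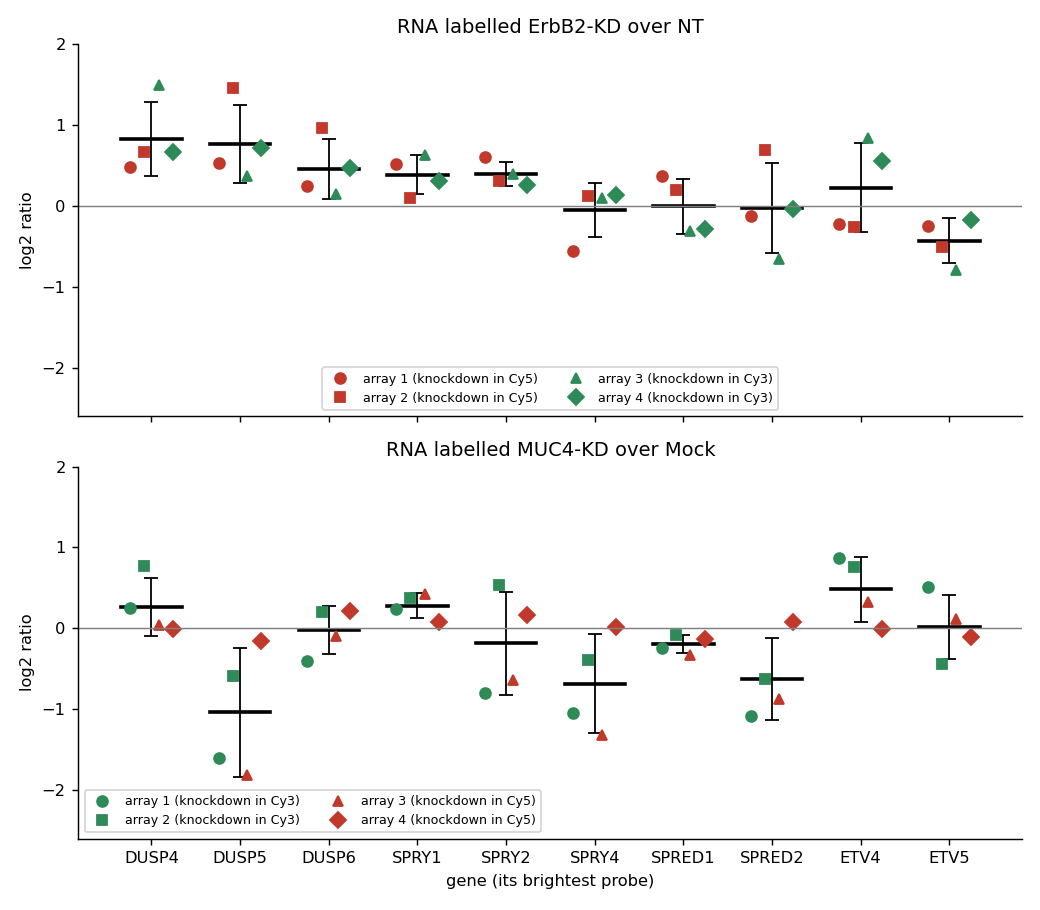
Log2 ratio (vertical axis) of knockdown over control RNA, as labelled, for the brightest probe of each of the 10 genes (horizontal axis) on each array. The points are single arrays coloured by the dye of the knockdown RNA, the wide bars are means and the thin bars 1 SD (n = 4). DUSP4, DUSP5, DUSP6, SPRY1 and SPRY2 lie above 0 on all 4 ErbB2-KD arrays, DUSP5 lies below 0 on all 4 MUC4-KD arrays, and array 4 of MUC4-KD lies closest to 0 for most genes.

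On the MUC4-KD arrays as labelled, DUSP5, SPRY4 and SPRED2 had the lowest mean ratios and ETV4 the highest. None of the 10 members passed an adjusted p of 0.05 (0 of 10 by limma, where 20.5% of 25047 tested probes passed). At an unadjusted p under 0.05, limma gave 5 members, with ETV4 and SPRY1 higher and DUSP5, SPRY4 and SPRED2 lower, where 40.2% of tested probes passed at that level (21.8% higher and 18.4% lower). The methods' t-test gave 2 at that level, SPRY1 and SPRED1, against 6916 of the 25047 tested probes. On 4 of 4 arrays, 1 member was higher (SPRY1, against 27.4% of tested probes) and 2 were lower (DUSP5 and SPRED1, against 22.0%). The median of the 10 members was -0.10, against 0.01 over all tested probes. The members called, 0 of 10, were below the share of all probes, and those at the unadjusted level, 5 of 10, were above it. With 10 genes, neither count sets the members apart from all probes.

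DUSP5 gave -1.61, -0.58, -1.81 and -0.15 on arrays 1 to 4 of MUC4-KD. All 4 arrays were below 0, and the mean was -1.04 ± 0.80 (SD, n = 4; adjusted p = 0.0550 in limma). SPRY4 gave -1.04, -0.39, -1.31 and 0.02, a mean of -0.68 ± 0.61 (SD, n = 4; adjusted p = 0.0835 in limma). SPRED2, through its brighter probe, gave -1.09, -0.63, -0.87 and 0.08 (mean -0.63 ± 0.50, SD, n = 4; adjusted p = 0.0728 in limma). Arrays 1 and 3, which share a slide, were the lowest for all 3 genes, and array 4 was the nearest to 0.
ETV4, with the values given above, had a mean of 0.48 ± 0.40 (SD, n = 4; adjusted p = 0.0913 in limma), and passed with a dye term in the fit (limma adjusted p = 0.0351), where 26.9% of tested probes passed. DUSP5 passed with the scanner software's own log ratios (limma adjusted p = 0.0209), where 28.1% of tested probes passed, and DUSP5 (adjusted p = 0.0250) and SPRY4 (adjusted p = 0.0430) passed in 1 limma fit over all 8 arrays, where 27.2% did. With arrays 1 and 3 and arrays 2 and 4 averaged as pairs, 0 of 10 members passed in limma, where 14.4% of tested probes passed, and DUSP5 had an adjusted p of 0.0936. At an unadjusted p under 0.05, that limma fit gave 4 of 10 members and 9163 of 25044 probes.

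Array 4 of MUC4-KD stood apart from the others. Its ratios of the 10 members lay between -0.15 and 0.21, and over all probes it correlated with the other 3 arrays at r = 0.32 to 0.51, while those 3 correlated with each other at 0.66 to 0.82. Without array 4, 4 members passed in the limma fit, where 37.3% of 25044 probes passed (19.1% higher and 18.2% lower). DUSP5 then fell by 1.33 on the log2 scale (adjusted p = 0.0131), SPRY4 by 0.92 (adjusted p = 0.0185) and SPRED2 by 0.86 (adjusted p = 0.00722), and ETV4 rose by 0.65 (adjusted p = 0.0213). The share of members called without that array, 4 of 10, was close to the share of all probes.

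The other 6 members lay nearer to 0 on the MUC4-KD arrays. SPRY1 gave 0.24, 0.38, 0.42 and 0.07, above 0 on 4 of 4 arrays (mean 0.28 ± 0.16, SD, n = 4; adjusted p = 0.121 in limma). With the scanner software's own log ratios, the SPRY1 mean was 1.40 (limma adjusted p = 0.0326, where 28.1% of tested probes passed). Array 4 gave 2.69 there, against 0.07 above, and arrays 1 to 3 gave 0.88, 1.21 and 0.80. SPRY1 was well above background on 4 arrays in the knockdown RNA and 3 in the control RNA. It was thus tested only through the RNA in which it was higher, so no conclusion is drawn from this call. SPRED1 gave -0.24, -0.09, -0.33 and -0.13, below 0 on 4 of 4 arrays (mean -0.20 ± 0.11, SD, n = 4; adjusted p = 0.215 in limma).
DUSP4 (mean 0.26 ± 0.36), DUSP6 (-0.02 ± 0.29), SPRY2 (-0.18 ± 0.64) and ETV5 (0.02 ± 0.40; all SD, n = 4) had arrays on both sides of 0. SPRY2 spread the most of these, from -0.80 on array 1 and -0.63 on array 3 to 0.54 on array 2.
DUSP6 and ETV5 were the members with the means closest to 0, and the sign of both means changed with the processing.

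The members were ordered differently in the experiments. In ErbB2-KD the order from highest to lowest mean was DUSP4, DUSP5, DUSP6, SPRY2, SPRY1, ETV4, SPRED1, SPRED2, SPRY4 and ETV5, and neighbours differed by less than the larger of their SDs except SPRY4 and ETV5, which lay 0.38 apart. The MUC4-KD order was ETV4, SPRY1, DUSP4, ETV5, DUSP6, SPRY2, SPRED1, SPRED2, SPRY4 and DUSP5, where the widest gap, between SPRED1 and SPRED2, was 0.43, and each neighbouring pair differed by less than the larger of its SDs. With the MUC4-KD sign turned this order runs backwards. DUSP5, second highest in ErbB2-KD, was thus lowest in MUC4-KD as labelled and would be highest with the sign turned.

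The difference between the experiments was tested directly, as the log2 ratio in ErbB2-KD minus that in MUC4-KD in 1 limma fit of all 8 arrays. DUSP5 was the member that passed (1 of 10, where 9.91% of 25835 tested probes passed and 3.41% passed as higher in ErbB2-KD). Its difference was 1.80 with 95% limits of 0.92 and 2.69 (limma adjusted p = 0.0258). All 4 ErbB2-KD arrays were above 0 and all 4 MUC4-KD arrays below 0, a pattern held by 1.94% of 23081 probes tested in both experiments. Within each of the 3 slides, which held arrays of both experiments, the DUSP5 difference was 1.03, 1.61 and 2.42. DUSP5 no longer passed without array 4 of ErbB2-KD (1.82, limma adjusted p = 0.0555), without array 1 of MUC4-KD (1.61, adjusted p = 0.0751) or without array 3 of MUC4-KD (1.55, adjusted p = 0.0785). It also failed to pass with median centring in place of loess (1.82, limma adjusted p = 0.373) and with no filter on dim probes (limma adjusted p = 0.0533). The difference was above 0 under each of these settings.

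With the MUC4-KD sign turned, the DUSP5 difference was -0.27 with 95% limits of -1.16 and 0.61 (limma adjusted p = 0.657), so that the call rests on the labelled direction. In that form DUSP4 (1.09, limits 0.50 and 1.68, limma adjusted p = 0.0243) and SPRY1 (0.67, limits 0.29 and 1.04, limma adjusted p = 0.0274) passed, both higher, where 17.2% of probes passed and 9.03% passed as higher. SPRY1 was too dim for a test in ErbB2-KD alone and entered this one only through the RNA labelled MUC4-KD.
As labelled, the 9 members other than DUSP5 did not pass. The difference was 0.57 for DUSP4 (95% limits -0.02 to 1.16), 0.48 for DUSP6 (-0.03 to 0.98), 0.58 for SPRY2 (-0.08 to 1.23), 0.63 for SPRY4 (-0.05 to 1.32) and 0.60 for SPRED2 (-0.13 to 1.33).
The upper limits of these 5 genes lay between 0.98 and 1.33, so that a difference of that size was not excluded. Leaving out 1 array moved these differences to as low as 0.34 for DUSP4 (without ErbB2-KD array 3), 0.31 for DUSP6 and 0.36 for SPRED2 (both without ErbB2-KD array 2), 0.37 for SPRY2 (without MUC4-KD array 1) and 0.42 for SPRY4 (without MUC4-KD array 3). With the scanner software's log ratios the differences were 1.00 for DUSP4 and 0.99 for SPRY4, and neither passed in limma. For DUSP6, the difference was nearly the same with the sign turned, at 0.43 (-0.07 to 0.94), because its MUC4-KD mean was close to 0. SPRY1 (0.11), SPRED1 (0.19), ETV4 (-0.26) and ETV5 (-0.45) also had limits on both sides of 0 as labelled. With the scanner software's log ratios these were -0.65 for SPRY1, 0.38 for SPRED1, -0.23 for ETV4 and -1.77 for ETV5 (limma adjusted p = 0.132 for ETV5), where SPRY1 and ETV5 were not well above background on all 4 ErbB2-KD arrays.

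**Figure D2:**
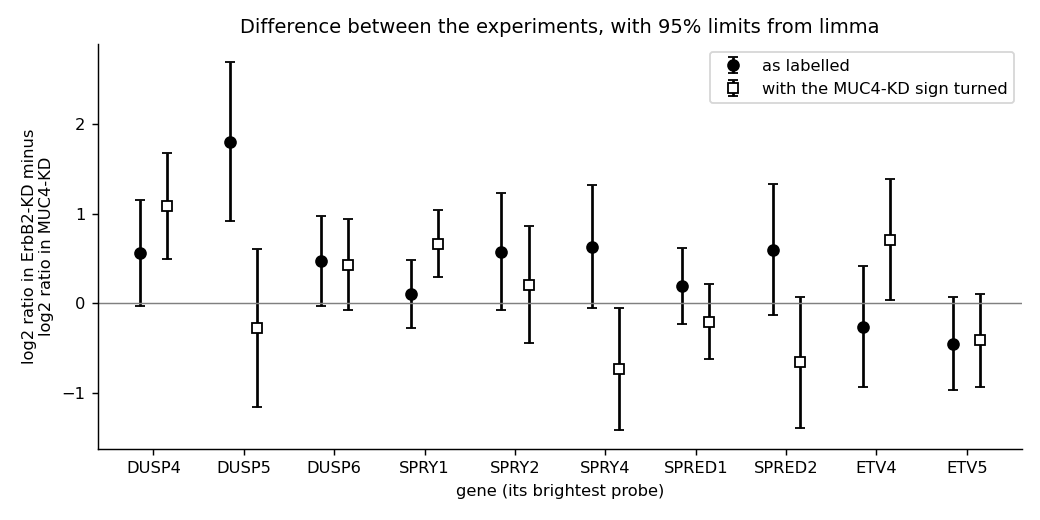
Difference in log2 ratio between ErbB2-KD and MUC4-KD (vertical axis) for the 10 genes (horizontal axis, brightest probe), as labelled (filled circles) and with the MUC4-KD sign turned (open squares), with 95% limits from limma over 8 arrays. DUSP5 stands at 1.80 as labelled and at -0.27 with the sign turned, and DUSP6 stands at 0.48 and 0.43.

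Where a gene had 2 probes, they did not always read the same transcript level. Both ETV4 probes stayed within 0.27 of each other on each of the 8 arrays, and the ETV5 probes within 0.36. The SPRED1 probes differed by up to 0.63 and had the same sign on 5 of 8 arrays. The SPRED2 probes differed by up to 1.44 and had the same sign on only 1 of 8 arrays. Over the MUC4-KD arrays the brighter SPRED2 probe had a mean of -0.63 and the other 0.27 ± 0.17 (SD, n = 4), so that the low SPRED2 ratio above holds for 1 of its 2 probes.

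**Figure D3:**
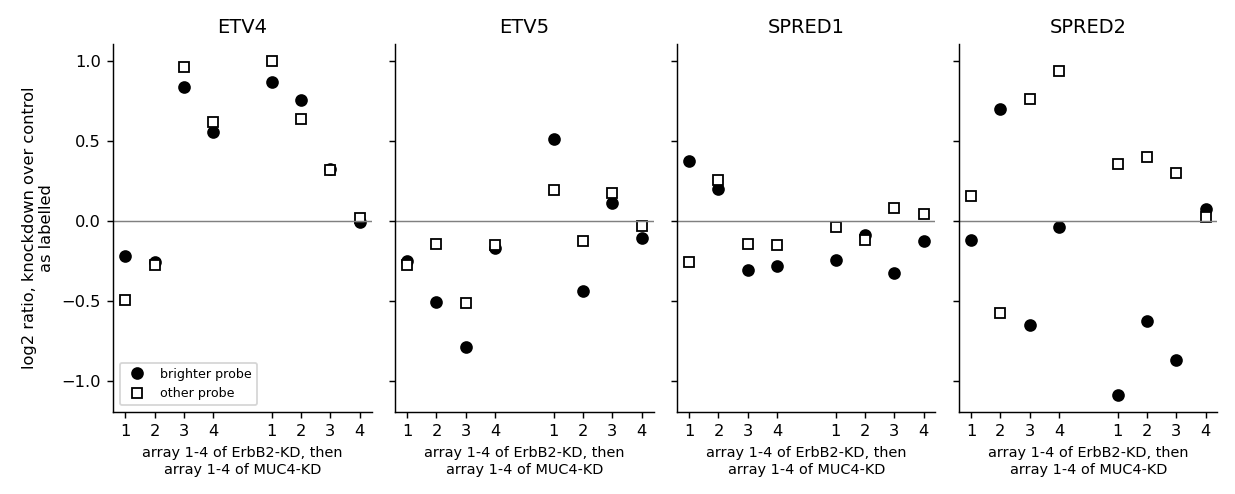
Log2 ratio (vertical axis) of both probes of ETV4, ETV5, SPRED1 and SPRED2 on arrays 1 to 4 of ErbB2-KD and of MUC4-KD (horizontal axis), with filled circles for the brighter probe and open squares for the other. The ETV4 probes overlay each other within 0.27, whereas the SPRED2 probes differ by up to 1.44.

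The genes around these feedback regulators were read from lists of related genes. Among 8 other dual-specificity phosphatases, 7 could be tested in ErbB2-KD and 0 passed (limma). At an unadjusted p under 0.05, limma gave 2 higher and 1 lower, where 7.47% of tested probes were higher and 10.6% lower. The largest values were 1.07 for DUSP10 (limma adjusted p = 0.176) and -0.96 for DUSP8 (adjusted p = 0.105). Of 7 tested in MUC4-KD, 3 passed as higher and 1 as lower (limma), where 12.0% and 8.48% of tested probes did. DUSP2, a nuclear phosphatase of ERK, gave -2.06, -1.01, -2.02 and -0.27, a pattern over the arrays like that of DUSP5, with a mean of -1.34 (limma adjusted p = 0.0376). DUSP10, which acts on JNK and p38, rose by 0.93 (limma adjusted p = 0.0258), and DUSP1, the immediate-early phosphatase, by 0.87 (adjusted p = 0.0499). The phosphatases therefore moved both ways within the MUC4-KD experiment. In ErbB2-KD, DUSP2 gave 0.57, 0.53, 0.57 and 0.48, a mean of 0.54 (limma adjusted p = 0.0711). Its difference between the experiments was 1.87 as labelled (limma adjusted p = 0.0184). With the MUC4-KD sign turned it was -0.80 (limma adjusted p = 0.155). The opposed pattern of DUSP5 was thus not particular to that gene.

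Of 13 other ETS factors, 11 were tested in ErbB2-KD and 0 passed (limma), with ETS1 at -0.60 (limma adjusted p = 0.232) and ETS2 at 0.52 (adjusted p = 0.353). At an unadjusted p under 0.05, limma gave 1 higher and 2 lower, where 7.47% of tested probes were higher and 10.6% lower. ELK3 was the 1 of 12 to pass in MUC4-KD as labelled, at 0.75 (limma adjusted p = 0.0332), where 20.5% of all tested probes passed. The Sprouty gene SPRY3 was tested in MUC4-KD alone and stood at -0.01 (limma adjusted p = 0.953).

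Among 10 further genes read as output of the pathway, PLAUR, the urokinase receptor, gave 1.48, 1.46, 1.80 and 1.85 in ErbB2-KD, a mean of 1.65 ± 0.21 (SD, n = 4; adjusted p = 0.0118 in limma). It was the 1 gene of 10 to pass in ErbB2-KD, where 0.549% of tested probes passed as higher. At an unadjusted p under 0.05, limma gave 5 as higher, where 7.47% of tested probes were, and the list median was 0.26. The list was chosen with earlier results of these data known, so nothing about the list is concluded from these shares. The PLAUR difference from MUC4-KD was 2.30 (limma adjusted p = 0.00385) as labelled and 1.00 with the MUC4-KD sign turned (limma adjusted p = 0.0415), so that PLAUR was higher in ErbB2-KD in both forms. MYC, a transcription factor of cell growth, was the 1 of 9 that passed in MUC4-KD, at 1.28 (limma adjusted p = 0.0246), against 20.5% of all tested probes, and the list median was 0.25.

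The kinases, adaptors and GTPases of the cascade itself had list medians of 0.01 over 16 genes in ErbB2-KD and 0.13 over 16 in MUC4-KD. RASA1, which turns RAS off, passed in both experiments, at 1.06 in ErbB2-KD (limma adjusted p = 0.0494) and 1.24 in MUC4-KD as labelled (limma adjusted p = 0.00534), each above 0 on 4 of 4 arrays. The difference between them was -0.19 as labelled (limma adjusted p = 0.600) and 2.30 with the MUC4-KD sign turned (limma adjusted p = 0.000784), since RASA1 then goes opposite ways in the experiments. NRAS, a RAS GTPase, rose by 0.93 (limma adjusted p = 0.0104) and the adaptor SHC1 fell by 0.50 (adjusted p = 0.0472) in MUC4-KD as labelled. With RASA1 these were 3 of 16 cascade genes that passed there, where 20.5% of all tested probes passed. In ErbB2-KD, RASA1 was the 1 of 16, where 1.43% of tested probes passed. This list was also chosen with earlier results known, so nothing about the cascade is concluded from that share.
A further list held 9 receptor feedback proteins and signalling partners, and 0 passed in ErbB2-KD by limma. At an unadjusted p under 0.05, 1 was higher, where 7.47% of tested probes were. The largest means there were 1.02 for LRIG1 (limma adjusted p = 0.142) and 0.55 for ERRFI1 (adjusted p = 0.560). LRIG1, which lowers the level of ErbB receptors, gave 3.16, 3.03, 3.11 and 0.60 in MUC4-KD (mean 2.47, limma adjusted p = 0.0205), and the ubiquitin ligase CBL had a mean of 0.86 (adjusted p = 0.00868). They were the 2 of 9 that passed there, where 20.5% of all tested probes passed. LRIG1 was also much lower on array 4 than on the other 3 arrays.

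**Figure D4:**
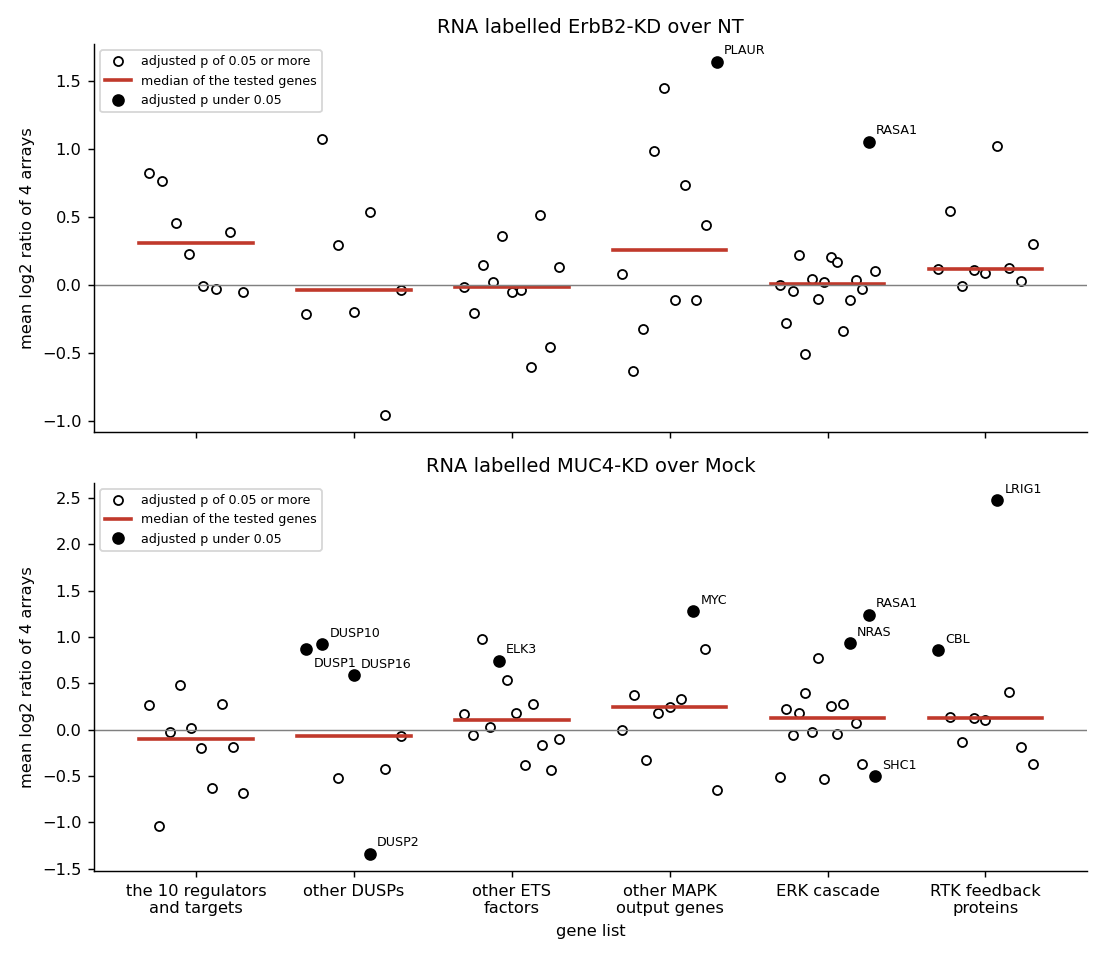
Mean log2 ratio of 4 arrays (vertical axis) for each tested gene of 6 lists (horizontal axis) in ErbB2-KD and in the RNA labelled MUC4-KD, with genes at a limma adjusted p under 0.05 filled and named and the list medians as red lines. PLAUR and RASA1 pass in ErbB2-KD. The regulators and targets have medians of 0.31 (8 tested in ErbB2-KD) and -0.10 (10 tested in MUC4-KD) and no gene past the threshold.

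The genes whose ratios lay closest to those of DUSP6, SPRY4 and ETV4 over the 8 arrays were found among 11647 genes by the root mean square difference in log2 ratio. They were FBXO33 (0.16), RAB5IF (0.17) and HYLS1 (0.17) for DUSP6, and KCTD2 (0.16), ZNF408 (0.19) and NCDN (0.20) for SPRY4. For ETV4 they were ZNF692 (0.12), HDAC7 (0.13) and GRK2 (0.14). These 3 were also below 0 on ErbB2-KD arrays 1 and 2 and above 0 on arrays 3 and 4. That split follows from their being chosen for closeness to ETV4 and says nothing further about the dye. None of the 10 members can be a neighbour under this rule, and the likeness is a description of 8 arrays.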

How the data were processed

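RNA from CAPAN-2 clones was hybridised on 8 two-colour Agilent arrays (4 per knockdown), each with 43376 spots other than controls, scanned in Cy5 and Cy3. The authors deposited scanner output of Agilent Feature Extraction 10.5 with spot and background intensities, a log10 ratio per spot, and a value table of log10 ratios that equalled the scanner's within 4.99e-06 once turned to knockdown over control. Here the deposited median intensities were background-corrected (normexp, offset 50), loess-normalised within each array and averaged per probe in limma 3.58.1 (R 4.3.3). Outlier spots were left out. The log2 ratio was turned by the dye labels. A probe was tested where it was well above background on 4 of 4 arrays in either RNA. The number of arrays limits the precision.

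Each experiment was tested against 0 with lmFit and eBayes, and the difference in 1 fit of 8 arrays, with Benjamini-Hochberg adjustment over all tested probes. Symbols were matched for 25398 probes through RefSeq. The members and lists were chosen with earlier results of these data known. Named from other lists were at most the 3 called genes with the largest ratio per experiment (the 2 largest where none was called). The GGAA count was added after the values were seen. Alternatives were other background, dye, filter, slide, spread and test settings, and each array left out. Scripts were tested on simulated data. No authors' comparison columns were used.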

Additional observations from a re-analysis of the deposited data

Results flagged for a closer look

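The DUSP5 difference between ErbB2-KD and the RNA labelled MUC4-KD, 1.80 on the log2 scale, stood out because a test of the difference itself passed (limma adjusted p = 0.0258). SPRY4 in ErbB2-KD stood out because array 1, at -0.55, lay far from the other 3 arrays, which were between 0.10 and 0.13. Its gap was 0.954 of the range of the group. Such gaps were looked for in 24 groups of 4 arrays, and chance alone marks about 1 in 20.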

How the results depend on the processing

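The settings moved the counts of probes called in limma more than the members' directions. In ErbB2-KD, 342 probes passed (131 higher, 211 lower), against 31 with median centring (15 higher, 16 lower), 50 with no filter on dim probes, 190 with a dye term, 515 with an intensity trend and robust eBayes, 1152 in 1 fit over all 8 arrays, 0 by the methods' t-test (3176 at an unadjusted p under 0.05) and 0 (without array 1, 3864 at an unadjusted p under 0.05) to 487 with an array left out. In the RNA labelled MUC4-KD, 5131 passed (3007 higher, 2124 lower), against 1 with median centring, 2930 with no filter, 106 by the methods' t-test and 154 (without array 3) to 9347 (without array 4) with an array left out. For the difference, 2559 passed (882 higher, 1677 lower), against 4076 with the scanner's log ratios, 117 with median centring (8 higher, 109 lower), 4433 with the MUC4-KD sign turned and 638 to 5060 with an array left out. The replicate numbers do not pair the samples (correlations of same-numbered deviations of -0.24 to -0.05), and with the replicate number as a block 584 probes passed for the difference, DUSP5 included.

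Members called in ErbB2-KD went from 0 to 1 (DUSP4) in 1 fit over all 8 arrays, where 4.83% of tested probes passed. In MUC4-KD they went from 0 to 2 with the scanner's log ratios (DUSP5, SPRY1, where 28.1% of tested probes passed), 1 with a dye term (ETV4, 26.9%) and 2 in 1 fit over all 8 arrays (DUSP5, SPRY4, 27.2%). With the mean of a gene's probes they went to 1 (DUSP5), and the share over all genes was not counted there. They went to 4 without array 4 (37.3% of probes) and stayed at 0 without any other array (0.615% to 3.83%). For the difference they went from 1 to 0 with median centring (DUSP5 at 1.82, limma adjusted p = 0.373, where 0.453% of probes passed) and with no filter (limma adjusted p = 0.0533, 4.23% of probes). They went to 2 with the MUC4-KD sign turned (DUSP4, SPRY1, 17.2% of probes) and 0 to 1 with an array left out, with the probe counts given above.

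Directions turned in the following cases. SPRED2 in ErbB2-KD was 0.14 with the mean of both probes. In MUC4-KD, ETV5 was -0.27 with the scanner's log ratios and -0.067 with median centring, and DUSP6 0.090 with median centring. The SPRY1 difference was -0.65 with the scanner's log ratios. With the MUC4-KD sign turned the differences were -0.27 for DUSP5, -0.73 for SPRY4, -0.20 for SPRED1, -0.65 for SPRED2 and 0.71 for ETV4. With an array left out, the ErbB2-KD values ranged from -0.11 to 0.12 for SPRY4, -0.13 to 0.094 for SPRED1 and -0.27 to 0.18 for SPRED2, and the MUC4-KD values from -0.10 to 0.11 for DUSP6, -0.42 to 0.021 for SPRY2 and -0.15 to 0.17 for ETV5. The cause of these shifts was not tested. Each experiment has 1 control pool, the spread within a slide was estimated over all 8 arrays, and ETV5 and SPRY1 were too dim for a test in ErbB2-KD.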
